A study of Homo sapiens with 4 samples.

Results

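TEAD4 occupancy was examined at 4 genes that encode partners of the TEAD transcription factors: YAP1, WWTR1, VGLL3 and VGLL4. A peak was counted at a gene when its midpoint lay in the gene body or within 50 kb of either end on the human genome build hg19. By this rule 52 of the 51017 listed peaks belonged to the 4 loci, 40 of 39477 in MKN28 and 12 of 11540 in SNU216. MKN28 and SNU216 are established human gastric cancer cell lines, and no treatment or genetic change is given for either in the labels. Each line gave 1 ChIP-seq library made with an antibody to TEAD4 and 1 input library without antibody. The authors called the peaks of each line against its own input. Without replicate libraries, the spread between cultures is unknown and no p-value is given. The number of sequenced reads is unknown because the lists carry none. The peak lists hold no expression values, so the labelled cell type could not be checked against its markers.

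TEAD proteins bind DNA but depend on partner proteins to act on transcription. YAP1 and WWTR1, which encodes the protein TAZ, are the co-activators that the kinases of the Hippo pathway hold out of the nucleus. VGLL3 and VGLL4 encode vestigial-like proteins, which also bind TEADs, and VGLL4 is known to compete with YAP for them.

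The start of YAP1 was under a TEAD4 peak in both lines, and VGLL4 had a peak in both lines just inside its 5′ end. The RefSeq promoter windows of these 2 genes are therefore shown, each 300 bases from 250 before the transcription start to 50 after it, 5′ to 3′ on the gene's strand. They come from build GRCh38.p14, at chr11:102110197-102110496 on the plus strand for YAP1 and at chr3:11720490-11720789 on the minus strand for VGLL4. For VGLL4 the outermost of its 5 listed starts was taken. By the hg19 coordinates, the VGLL4 peaks lay 810 to 1376 bp (MKN28) and 796 to 1331 bp (SNU216) inside the gene. The VGLL4 window ends 50 bases after the start, so its letters are not taken as those under the peaks. Capitals mark GGAATG, the core of the TEAD recognition motif, which was searched on both strands (CATTCC on the other).
YAP1: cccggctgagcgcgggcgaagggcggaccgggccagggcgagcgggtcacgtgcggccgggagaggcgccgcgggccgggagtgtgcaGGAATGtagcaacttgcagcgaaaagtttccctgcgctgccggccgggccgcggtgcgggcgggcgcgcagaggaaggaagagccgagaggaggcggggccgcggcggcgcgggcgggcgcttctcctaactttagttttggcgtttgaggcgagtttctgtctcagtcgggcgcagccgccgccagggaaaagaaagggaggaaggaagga
VGLL4: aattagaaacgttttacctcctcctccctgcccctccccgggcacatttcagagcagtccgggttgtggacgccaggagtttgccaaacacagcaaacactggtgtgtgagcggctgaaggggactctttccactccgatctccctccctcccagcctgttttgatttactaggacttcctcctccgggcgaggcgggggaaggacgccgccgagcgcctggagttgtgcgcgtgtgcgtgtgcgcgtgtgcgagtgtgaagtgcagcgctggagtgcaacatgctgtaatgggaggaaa
The YAP1 window held 1 match, 162 to 157 bases before the start, and the VGLL4 window held none. RefSeq lists 9 starts for the 4 genes, 1 for YAP1, 2 for WWTR1, 1 for VGLL3 and 5 for VGLL4, and the YAP1 window was the 1 with a match. Of all 35116 RefSeq promoter windows of this length, 14.0% held the motif. The AP-1 motif TGANTCA, searched on both strands, was found in 0 of the 9 windows and in 7.71% of all windows. A match describes letters only, and windows without a match do not bear on binding. The peaks are on hg19 and these letters on GRCh38.p14, so the position of the match within a peak was not read.

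Counting every listed peak, YAP1, VGLL3 and VGLL4 held more TEAD4 peaks than most stretches of their length in both lines. WWTR1 did so in SNU216 only. In MKN28 the YAP1 locus held 15 peaks, WWTR1 2, VGLL3 7 and VGLL4 16. In SNU216 they held 4, 2, 2 and 4 peaks. The windows measured 223.0 kb for YAP1, 240.8 kb for WWTR1, 153.1 kb for VGLL3 and 264.7 kb for VGLL4. The genome was cut into tiles of the same length as each window to give a background. At least as many MKN28 peaks as at YAP1 were found in 1.16% of such tiles, and the figure was 1.61% for VGLL4, 6.47% for VGLL3 and 54.9% for WWTR1. For SNU216 the shares were 5.76% for YAP1, 7.65% for VGLL4, 13.4% for VGLL3 and 21.5% for WWTR1. The tiles include gene deserts and unsequenced stretches and were not matched for gene content. The WWTR1 count in MKN28 was that of an ordinary tile, whose median was 2. In SNU216 the median tile of that length held 0 peaks, against 2 at WWTR1. The MKN28 list was also limited to the 11540 highest-scoring of its 39477 peaks, which removes most peaks of the list as a whole. After this cut 0 of the 7 peaks were left at VGLL3. At YAP1 4 of the 15 were left, and 5.98% of tiles of that length held at least as many. For VGLL4 the values were 5 of the 16 and 4.61%. The shares kept at YAP1 and VGLL4 were near that of the whole list. In the VGLL3 gene body alone MKN28 had 2 peaks, and 16.7% of tiles of that length had at least as many. The MKN28 gene-body counts were 7 at YAP1 (4.03%), 12 at VGLL4 (1.2%) and 1 at WWTR1 (60.5%). SNU216 had 2 at YAP1 (10.5%), 2 at VGLL4 (14.5%), 1 at VGLL3 (14.5%) and 1 at WWTR1 (30.0%). Among peaks scoring 100 or more, the MKN28 counts were 7 at YAP1 (3.59% of tiles), 5 at VGLL4 (11.9%), 1 at VGLL3 (43.9%) and 0 at WWTR1. In SNU216 they were 1 at YAP1 (21.8%), 3 at VGLL4 (4.12%), and 0 at VGLL3 and WWTR1.

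**Figure D1:**
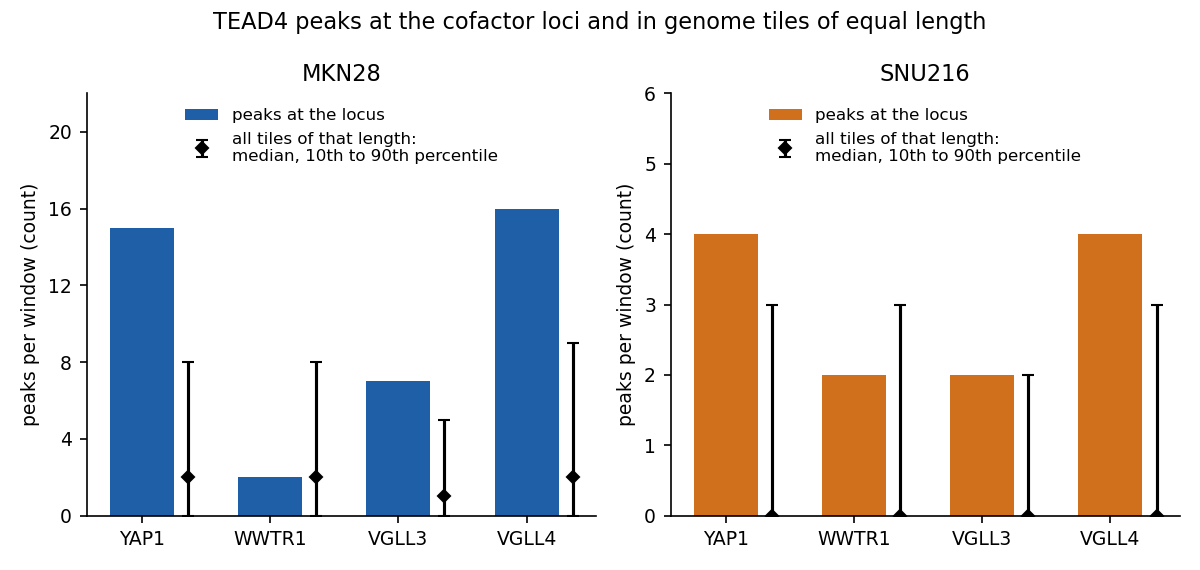
Number of listed TEAD4 peaks in the window of each gene (bars; gene body and 50 kb on each side) in MKN28 (left) and SNU216 (right), beside the median (diamond) and 10th to 90th percentile (line) of all genome tiles of the same length. The vertical scales differ between the panels. With every listed peak counted, YAP1 and VGLL4 stood above the 90th percentile in both lines, VGLL3 did so in MKN28, and WWTR1 did so in neither.

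Over the 4 windows together, 0.882 Mb, the density was 45.4 peaks per Mb in MKN28 and 13.6 in SNU216. The whole lists had 13.0 and 3.79 peaks per Mb, so the loci were 3.49 times as dense as the MKN28 list and 3.59 times as dense as the SNU216 list. On chromosome 3, which carries WWTR1, VGLL3 and VGLL4, the density was 10.5 in MKN28 and 4.61 in SNU216. On chromosome 11, which carries YAP1, it was 16.7 in MKN28 and 5.59 in SNU216. At WWTR1 alone it was 8.31 per Mb in either line, under the chromosome 3 density of MKN28 and above that of SNU216. The lists had 3.33 MKN28 peaks for each SNU216 peak at the 4 loci, against 3.42 over the whole lists. With MKN28 limited to its 11540 highest-scoring peaks, the loci held 9 MKN28 and 12 SNU216 peaks, a ratio of 0.75, against 1.0 for the lists. With every peak counted again, at the 3 loci on chromosome 3 the ratio was 3.12, against 2.29 for that chromosome, and at YAP1 it was 3.75, against 2.99 for chromosome 11. At WWTR1 the lines had equal counts, a ratio of 1.0.

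Most peaks at the loci were of middling or low score within their own list. The score is the authors' deposited value per peak, and it is ranked here only within a list. A cutoff of 100 was also applied to both lists, though it need not mean the same in each. The median score was 73.3 for the 40 MKN28 peaks, with a range of 50.5 to 2172, against 99.8 for the whole MKN28 list. It was 90.8 for the 12 SNU216 peaks, with a range of 60.1 to 365, against 84.7 for the whole SNU216 list. Of the 40 MKN28 peaks, 13 scored 100 or more (32.5%, exact 95% Clopper-Pearson interval 18.6 to 49.1), against 49.9% of the list. In SNU216, 4 of 12 did so (33.3%, 9.92 to 65.1), against 42.2% of the list. These intervals cover counting error only, and peaks of 1 locus share their surroundings and library. In MKN28, 4 of the 40 peaks were in the highest-scoring 10% of the list, 3 of them at VGLL4 and the fourth at YAP1. In SNU216, 1 of the 12 was, at VGLL4. Pooled over the 4 loci, the median peak width was 469.5 bp in MKN28 against 525 bp for its list. In SNU216 it was 369 bp against 408 bp. VGLL4 peaks were not narrower, with medians of 527 bp in MKN28 and 543 bp in SNU216. The medians of YAP1, WWTR1 and VGLL3 were 481, 417 and 452 bp in MKN28. In SNU216 they were 326.5, 388.5 and 359.5 bp. For all peaks of chromosome 3 the median was 498 bp in MKN28 and 401 bp in SNU216, and for chromosome 11 it was 554 and 438 bp.

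**Figure D2:**
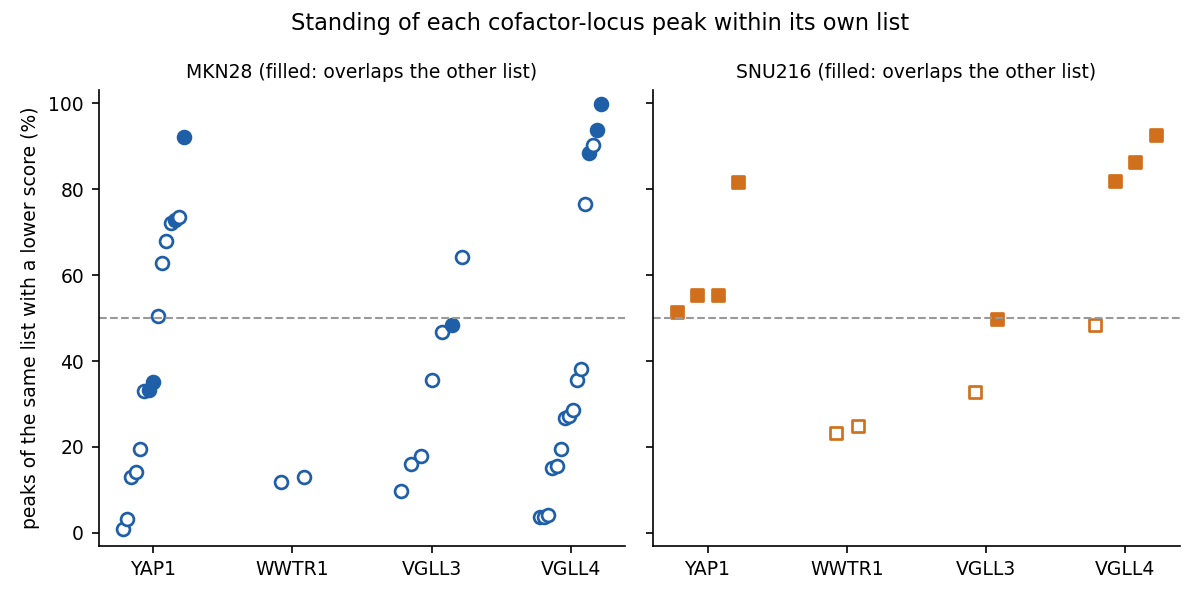
Each point is 1 TEAD4 peak at the gene named below it, in MKN28 (left, circles) and SNU216 (right, squares), and the vertical axis gives the percentage of peaks of the same list with a lower score; the dashed line is the middle of the list. Filled points overlap a peak of the other line. The highest MKN28 points are VGLL4 at 99.8 and 93.7 and YAP1 at 92.1, while the WWTR1 points stay under 25 in both lines.

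YAP1, the Hippo pathway co-activator, had TEAD4 at its start in both lines. The MKN28 peak chr11:101980839-101981214 reached from 353 bp before the 5′ end of the gene to 22 bp inside it and scored 73.3, above 33.2% of its list. The SNU216 peak chr11:101980915-101981201 lay wholly inside that interval, from 277 bp before to 9 bp inside, and scored 94.7, above 55.4% of its list. A second pair followed at 1.3 kb into the gene, where MKN28 had chr11:101982043-101982872 with a score of 183 and SNU216 had chr11:101982239-101982512 with a score of 87.04. Both lines therefore had 2 separate peaks in the first 2 kb around the start of YAP1.

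Further into YAP1 the lists had 1 more site in common. At 69.0 kb from the 5′ end, MKN28 had chr11:102049934-102050414 with a score of 75.7 and SNU216 had chr11:102050170-102050535 with a score of 94.5. The strongest peak within the YAP1 gene body in MKN28 was chr11:102039186-102039662, 58.2 kb from the 5′ end, with a score of 188. Its nearest SNU216 peak was 10.5 kb away. The other 4 MKN28 peaks in the gene body scored from 50.5 to 157. In all, 7 of the 15 MKN28 peaks and 2 of the 4 SNU216 peaks were in the gene body, where their midpoints were counted.

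The strongest TEAD4 site of the YAP1 window lay beyond the gene. It was 35.2 kb past the 3′ end, at chr11:102138978-102139739 with a score of 499 in MKN28, above 92.1% of the list, and at chr11:102139046-102139614 with a score of 201 in SNU216, above 81.6% of the list. In MKN28 it was the last of 6 downstream peaks that began 11.7 kb past the gene. The other 5 scored 135, 57.5, 56.9, 179 and 60.95 in order of distance and had no SNU216 partner. In GRCh38.p14 the next protein-coding gene on that side is BIRC3, an inhibitor of apoptosis gene, and the lists do not assign these peaks to either gene. A further pair lay 3.1 kb outside the window, with a score of 311 in MKN28 (chr11:102156924-102157571) and 69.6 in SNU216 (chr11:102157021-102157396). With a flank of 100 kb the YAP1 count was 22 in MKN28 and 10 in SNU216.

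WWTR1, the gene of the co-activator TAZ, had 2 low-scoring peaks in each line. MKN28 had chr3:149265975-149266409 in the gene body, score 56.1, and chr3:149216459-149216857 at 18.4 kb past the 3′ end, score 56.8. SNU216 had chr3:149297800-149298288 in the gene body, score 60.1, and chr3:149191505-149191792 at 43.4 kb past the 3′ end, score 61.05. These 4 scores were above 11.9% and 12.9% of the MKN28 list and above 23.3% and 24.8% of the SNU216 list. None overlapped a peak of the other line, and the gene-body peaks were 31.4 kb apart.

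No WWTR1 peak lay upstream of the 5′ end or within 1 kb of it in either list. The nearest MKN28 peak beyond the window on the upstream side was chr3:149453744-149454495, score 159, which lay 28.3 kb outside. On the downstream side an MKN28 peak with a score of 87.7 lay 0.9 kb outside. With a flank of 100 kb the MKN28 count was 6 and the SNU216 count stayed at 2. The rule gives WWTR1 a single 5′ end, whereas RefSeq lists 2 starts on GRCh38.p14, and the second was not placed on hg19 here. An unlisted site fell short of the authors' threshold and may still be bound.

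VGLL3, the shortest of the 4 genes at 53.1 kb, had 7 MKN28 peaks with scores of 54.8 to 141 and 2 SNU216 peaks. The only site common to both lists lay 4.7 kb upstream of the 5′ end. It was chr3:87044774-87045249 with a score of 96.3 in MKN28 and chr3:87044749-87045105 with a score of 84.7 in SNU216, close to the middle of either list (above 48.4% and 49.7%). The highest-scoring MKN28 peak, chr3:87075410-87075841 at 35.4 kb upstream, scored 141 and its nearest SNU216 peak was 30.3 kb away. The third-highest, chr3:86974632-86975048 at 12.3 kb past the 3′ end, scored 93.5.

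The second SNU216 peak at VGLL3, chr3:87010469-87010830 in the gene body, scored 66.5 and missed the nearest MKN28 peak by 2.5 kb. That MKN28 peak, chr3:87007475-87007926, scored 76.1. No peak lay within 1 kb of the VGLL3 5′ end in either list. At VGLL3 1 of the 7 MKN28 peaks and 0 of the 2 SNU216 peaks scored at least 100.

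VGLL4, the gene of a partner that competes with YAP for TEADs, held the strongest sites of the 4 loci in both lines. The top peak was inside the gene, 120.1 kb from its 5′ end. Distances at VGLL4 are from the rule's single 5′ end. RefSeq lists 5 VGLL4 starts on GRCh38.p14, which were not placed on hg19 here, so distances to the others were not read. In MKN28 it was chr3:11641799-11642481 with a score of 2172, rank 72 of the 39477 peaks and rank 5 on chromosome 3. In SNU216 it was chr3:11641846-11642426 with a score of 365, rank 845 of 11540 and rank 60 on chromosome 3. The SNU216 peak lay wholly inside the MKN28 peak, and the midpoints were 4 bp apart.

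A second common site was near the VGLL4 5′ end. MKN28 had chr3:11760844-11761410, from 810 to 1376 bp inside the gene, with a score of 382. SNU216 had chr3:11760889-11761424, from 796 to 1331 bp inside, with a score of 249.6. These stood above 88.5% of the MKN28 list and 86.3% of the SNU216 list, higher than the pair at the start of YAP1 in both lines. A weaker MKN28 peak of 60.9 followed at 2.1 kb into the gene.

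The third common VGLL4 site sat at the edge of the window, about 50 kb upstream. MKN28 had chr3:11811704-11812553 with a score of 571 and SNU216 had chr3:11811931-11812480 with a score of 204. Their midpoints were 91.5 bp and 14.5 bp inside the limit, so both count as VGLL4 peaks only at a flank of 50 kb or more. The upstream protein-coding neighbour in GRCh38.p14 is TAMM41, a mitochondrial lipid synthesis gene, and which gene these peaks act on cannot be read from the lists. The next peak further out was 387.4 kb beyond the limit in MKN28 and 422.9 kb beyond it in SNU216. SNU216 also had chr3:11806518-11806889, score 82.4, which missed the MKN28 peak by 4.8 kb.

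The other VGLL4 peaks were called in MKN28 alone. The strongest was chr3:11713834-11714351, 48.1 kb into the gene, with a score of 434, above 90.4% of the list, and its nearest SNU216 peak was 46.5 kb away. It had the highest score among the 32 MKN28 peaks of the 4 loci without a partner. A peak 101.5 kb into the gene scored 212, and the other 11 scored from 51.9 to 79.7. VGLL4 had 12 of its 16 MKN28 peaks in the gene body, a density of 72.9 per Mb against 40 per Mb in its flanks. In SNU216 the VGLL4 order was the reverse, on 4 peaks, with 12.1 per Mb in the gene body and 20 per Mb in the flanks. The protein-coding gene ATG7 overlaps VGLL4 in GRCh38.p14, and peaks were not divided between them. Whether a peak is exonic or intronic was not analysed here.

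**Figure D3:**
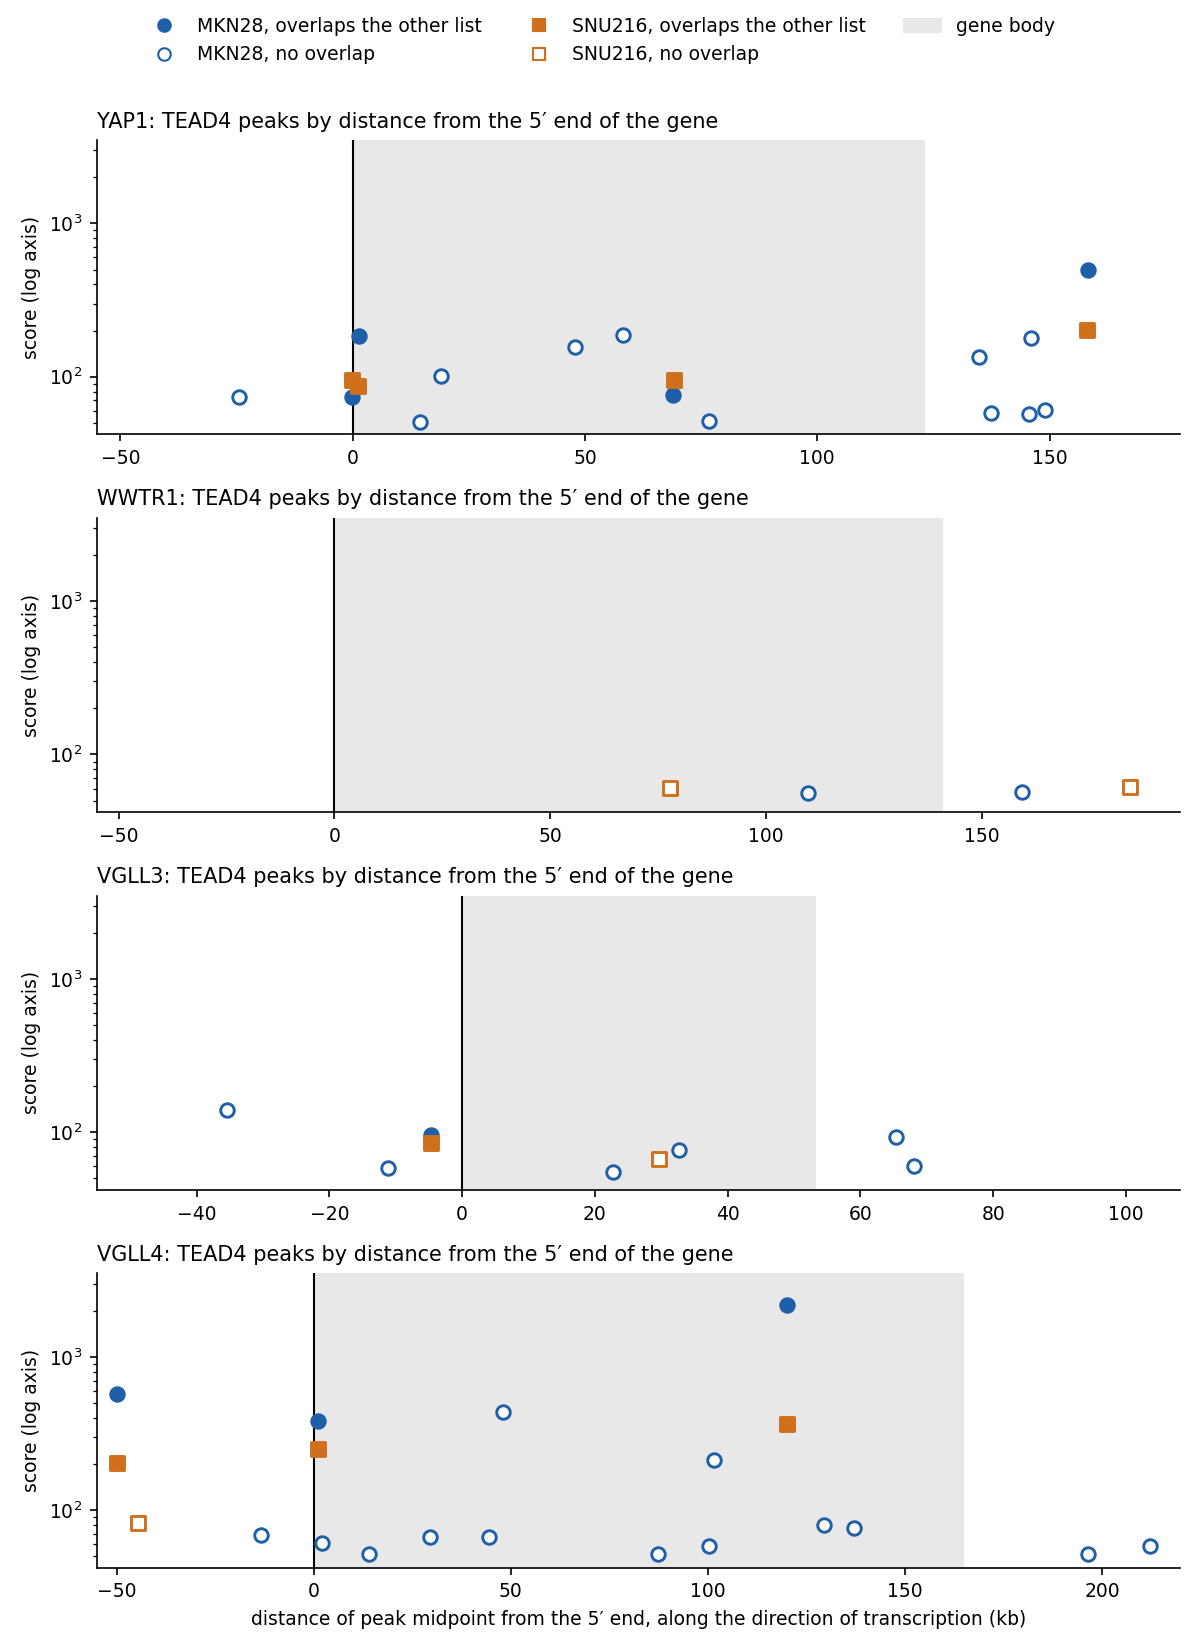
Each panel is 1 gene, and each point is 1 TEAD4 peak placed by the distance of its midpoint from the 5′ end along the direction of transcription (kb) and by the authors' score on a log axis. Circles are MKN28 and squares are SNU216, filled where the peak overlaps the other list, and the grey area is the gene body. VGLL4 carries the highest points of both lines at 120.1 kb, YAP1 has filled points at its start and at 158.2 kb in MKN28, and WWTR1 has 4 open points of low score.

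Across the 4 loci, 8 of the 40 MKN28 peaks overlapped an SNU216 peak by at least 1 bp (20%, 9.05 to 35.6), against 17.1% of the whole MKN28 list. In the other direction, 8 of 12 SNU216 peaks had an MKN28 partner (66.7%, 34.9 to 90.1), against 59.3% of the whole SNU216 list. Both shares were near their background. By gene, the MKN28 peaks with a partner were 4 of 15 at YAP1, 0 of 2 at WWTR1, 1 of 7 at VGLL3 and 3 of 16 at VGLL4. The SNU216 peaks with a partner were 4 of 4 at YAP1, 0 of 2 at WWTR1, 1 of 2 at VGLL3 and 3 of 4 at VGLL4. The level of overlap cannot be compared between the lines because the MKN28 list is the longer.

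Partnered peaks had the higher scores, as over the whole lists. In MKN28 the median score was 283 for the 8 peaks with a partner and 63.7 for the 32 without, against 226 and 88.6 in the whole list. In SNU216 it was 148 for the 8 and 63.8 for the other 4, against 115 and 64.8 in the whole list. The score ranges of the 2 kinds of peak did not meet in SNU216, where the lowest partnered peak scored 84.7 and the highest unpartnered one 82.4. They overlapped in MKN28, where a partnered peak scored as low as 73.3 and an unpartnered one as high as 434. Of the 4 MKN28 peaks in the highest-scoring 10% of the list, 3 had a partner, against 50.2% of all such peaks, and in SNU216 the only one had a partner, against 91.3%. Among peaks scoring 100 or more, 5 of 13 in MKN28 had a partner, against 27.3% of such peaks in the list, and 4 of 4 in SNU216, against 79.2%.

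The 8 pairs coincided closely, with a median of 54.25 bp between midpoints and a range of 4 to 178.5 bp; the median over all 6752 MKN28 peaks with a partner was also 54.25 bp. The SNU216 peak lay wholly inside the MKN28 peak in 5 of 8 pairs, against 58.4% of all pairs. The MKN28 peak was the wider in 8 of 8, against 81.9% of all pairs. The MKN28 peak stood higher within its list than its SNU216 partner within its own in 5 of 8, against 66.4% of all pairs. The 3 pairs in which SNU216 stood higher were the start of YAP1 (33.2% of MKN28 peaks and 55.4% of SNU216 peaks scored lower), the site 69.0 kb into YAP1 (35.2% and 55.3%) and the site upstream of VGLL3 (48.4% and 49.7%).

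**Figure D4:**
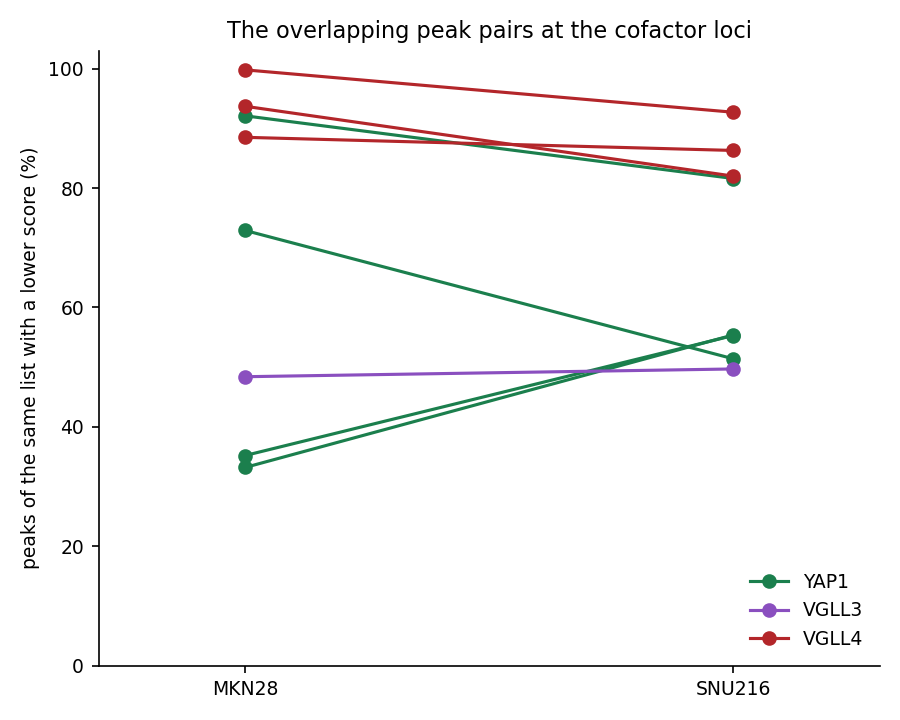
Lines join the overlapping TEAD4 peaks of MKN28 (left) and SNU216 (right) at YAP1, VGLL3 and VGLL4, and the vertical axis gives the percentage of peaks of the same list with a lower score. The 3 VGLL4 pairs lie at 82.0 or more in both lines, the 35.2 kb downstream site of YAP1 lies at 92.1 and 81.6, and the other YAP1 pairs and the VGLL3 pair lie between 33.2 and 72.9.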

How the data were processed

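Genomic DNA from TEAD4 immunoprecipitates of MKN28 and SNU216 was compared as 2 deposited peak lists, 1 per line. Per the submitters' processing notes, the tools were CASAVA 1.8, Bowtie2 2.0.0 and MACS, on build hg19. The sources used here do not give settings or the MACS version. The score of each peak is the authors' deposited value, whose definition the lists do not state, so scores were ranked within a list. Input libraries were not used here beyond the authors' calls, and depth is unknown.

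Peak starts were made 1-based. Gene bodies on hg19 came with the rule for the loci, and strand, neighbours and promoter sequences came from RefSeq (GRCh38.p14), where all 4 symbols matched. No coordinates were moved between builds. Other Hippo pathway genes and motifs inside peaks, which need hg19 annotation or sequence, were not analysed here. Overlap meant at least 1 bp, and of several partners the highest-scoring was taken. Tiles covered chromosomes 1 to 22 and X, with lengths from circlize 0.4.16. For each gene and list, the 3 highest-scoring peaks, every overlapping peak and every peak within 1 kb of the 5′ end were named; others named were chosen after their values were seen, as were the tile shares and list ratios under other settings. The genes and lists were chosen with earlier results of these data known. Software was scipy 1.17.1, pandas 2.3.3, numpy 2.4.6 and Python 3.11.15, and the membership and overlap code was tested on simulated data.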

Additional observations from a re-analysis of the deposited data

How the results depend on the processing

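Counting peaks in the gene bodies alone left 22 peaks in MKN28 and 6 in SNU216. Keeping peaks that scored 100 or more left 13 in MKN28 and 4 in SNU216, with median scores of 188 and 227, and 100% of those SNU216 peaks then overlapped, against 68.7% of the list at that score. At that score the MKN28 density of the loci was 2.28 times that of its list. With MKN28 limited to its 11540 highest-scoring peaks (score 170.85 and above), 9 MKN28 peaks were left, 4 at YAP1 and 5 at VGLL4, beside the 12 of SNU216. Of the 9, 55.6% overlapped, against 35.2% of the shortened list. Fewer peaks and higher medians follow from these settings' construction. The cause of the other moves was not tested. Leaving aside SNU216 values that a shorter MKN28 list cannot change, the other 34 of 44 values recomputed for the 4 loci together, among them those for flanks of 20 and 100 kb, stayed within 1.5 times the count or density, or within the interval of the share or median. Of 44 such counts per gene, 22 changed by more than 1.5 times. No paired analysis was possible because there is a single library per group, and for the same reason none could be omitted. With depth unknown, a peak listed in 1 line only does not show a difference in occupancy. Motif settings inside peaks were not run.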
